A study of Mus musculus with 8 samples.

Results

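The genes described here are 10 genes of mature astrocytes: Gfap, S100b, Slc1a2, Slc1a3, Aqp4, Gja1, Slc4a4, Aldoc, Glul and Aldh1l1. They were chosen by name, and every region of the deposited list that lay in such a gene or within 5000 bp of it was taken, on mm10. This gave 84 of 220894 regions, and 9 of the 10 genes had at least 1. The list came from bisulfite sequencing of captured genomic DNA of 8 mouse cell lines. Of these, 4 were brain tumour lines with IDH mutant genotype, 2 were tumour lines with wild-type IDH1 (RAS gliomas, per the labels), and 2 were wild-type lines of immortalized astrocytes. N::TVA and floxed Cdkn2a were shared by all the mice of origin, and floxed Atrx was carried by those of the mutant tumour lines and of the astrocyte lines, but not by those of the wild-type tumour lines. The mice had a mixed background of C57Bl/6, 129 and FVB/n. Of the astrocyte lines, named PDGFA and IWT-PDGFA, IWT-PDGFA expressed exogenous wild-type IDH1. TVA is the receptor of an avian retrovirus. Each region has a position and a score, a whole number that the authors gave once for the whole series. The sources used here do not say what the score counts. There is no value for any single line and no methylation level, so the depth of each line is unknown, no value below has a replicate error, and mutant and wild-type lines were not compared. No expression was measured in these data, so the label of the astrocyte lines could not be checked against its markers. The values below give which parts of the astrocyte genes were covered and the scores of their regions.

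Mature astrocytes support neurons by clearing glutamate, moving water and ions, coupling through gap junctions and supplying metabolites. Methylation of cytosine in CG dinucleotides at a promoter usually goes with silence of the gene, and the promoters of Gfap and S100b are known to lose methylation as neural precursors turn to the astrocyte fate. Mutant IDH1, found in human astrocytic and oligodendroglial tumours, makes a metabolite that blocks the enzymes which remove DNA methylation. A capture experiment reads such a promoter only where its sequence was recovered.

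The promoters of Gfap and S100b, the pair known for control by methylation, lay outside the listed regions. Covered here means lying in a region of the list. How regions were called is not known, so absence from the list does not show that a promoter was not read. A promoter was taken as the 300 bp from 250 bp before to 50 bp after the outer start of the gene in RefSeq. Gfap encodes the intermediate filament protein that defines astrocytes (chr11:102887336-102897200, minus strand). Its nearest region on the side of transcription began 850 bp inside the gene, and the nearest upstream one lay 3211 bp before the start. S100b encodes a calcium-binding protein (chr10:76253836-76261319, plus strand). Its nearest region lay 2965 bp inside the gene, with none upstream for 14676 bp. Of 17492 protein-coding genes with a listed strand, 70.9% had a region nearer to the start than Gfap, and 78.9% nearer than S100b. Both promoters were poor in CG, with 3 CG dinucleotides in each window, of which 2 precede the start, and 18.1% of all 21263 listed promoters had fewer. The bases before each start are shown with CG in capitals, since these are the cytosines a methylation assay would read, and none of those in the Gfap and S100b sequences lay in a region. For comparison the promoter of Aldoc, which encodes the brain isoform of aldolase, is shown, as its 5 CG all lay in a region. The sequences are the 250 bases before the start, from RefSeq on GRCm38.p6, the assembly that mm10 names, 5′ to 3′ on the strand of the gene.
Gfap (chr11:102897201-102897450, minus): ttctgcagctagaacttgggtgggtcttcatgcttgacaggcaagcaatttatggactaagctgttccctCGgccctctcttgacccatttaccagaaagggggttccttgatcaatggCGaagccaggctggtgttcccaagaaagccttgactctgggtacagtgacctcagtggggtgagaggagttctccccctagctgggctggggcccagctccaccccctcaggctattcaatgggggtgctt
S100b (chr10:76253586-76253835, plus): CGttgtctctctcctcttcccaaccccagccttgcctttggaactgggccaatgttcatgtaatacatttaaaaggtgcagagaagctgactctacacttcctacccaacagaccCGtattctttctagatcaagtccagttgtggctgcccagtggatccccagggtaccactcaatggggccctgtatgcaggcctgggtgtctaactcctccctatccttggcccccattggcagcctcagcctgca
Aldoc (chr11:78322823-78323072, plus): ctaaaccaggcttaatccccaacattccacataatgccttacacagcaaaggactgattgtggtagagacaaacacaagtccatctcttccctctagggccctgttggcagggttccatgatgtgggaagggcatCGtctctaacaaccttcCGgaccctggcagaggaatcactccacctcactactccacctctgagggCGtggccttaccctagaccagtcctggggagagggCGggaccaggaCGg

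Of the 9 genes with a listed strand, 5 had a region at the promoter, or 55.6%, against 57.1% of all protein-coding genes with a listed strand. A share this close to that of all genes does not set the astrocyte genes apart. The covered promoters were those of Aldoc, Aldh1l1, Gja1, Slc1a3 and Glul. The count rests on an overlap of at least 1 bp, and with the midpoint of the region required in the window it was 1. No share over all genes is given for the midpoint rule, so that fall cannot be read as particular to the astrocyte genes. At Aldoc (chr11:78323073-78327781) and at Aldh1l1 (chr6:90550768-90599171), which encodes a folate enzyme used as an astrocyte marker, regions covered all 300 bp. Of all listed promoters, 58.3% had a region and 25.3% were covered over their whole length. At Gja1 (chr10:56377300-56390419), which encodes the gap junction protein connexin 43, 289 bp were covered, with all 8 CG. At Slc1a3 (chr15:8634124-8710807, minus strand), which encodes the glutamate transporter GLAST, 143 bp and 2 of 3 CG were covered. At Glul (chr1:153899929-153909723), which encodes glutamine synthetase, regions touched the 2 edges of the window and left 190 bp between them, so 110 bp and 5 of 17 CG were covered. With the distance widened to 1000 bp from the start, 8 of the 9 genes had a region, against 71.9% of all genes with a listed strand. The genes without one at the promoter itself were Gfap, S100b, Slc1a2, Slc4a4 and Aqp4. The strand of Aqp4 was not listed, and neither of its ends had a region.

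**Figure D1:**
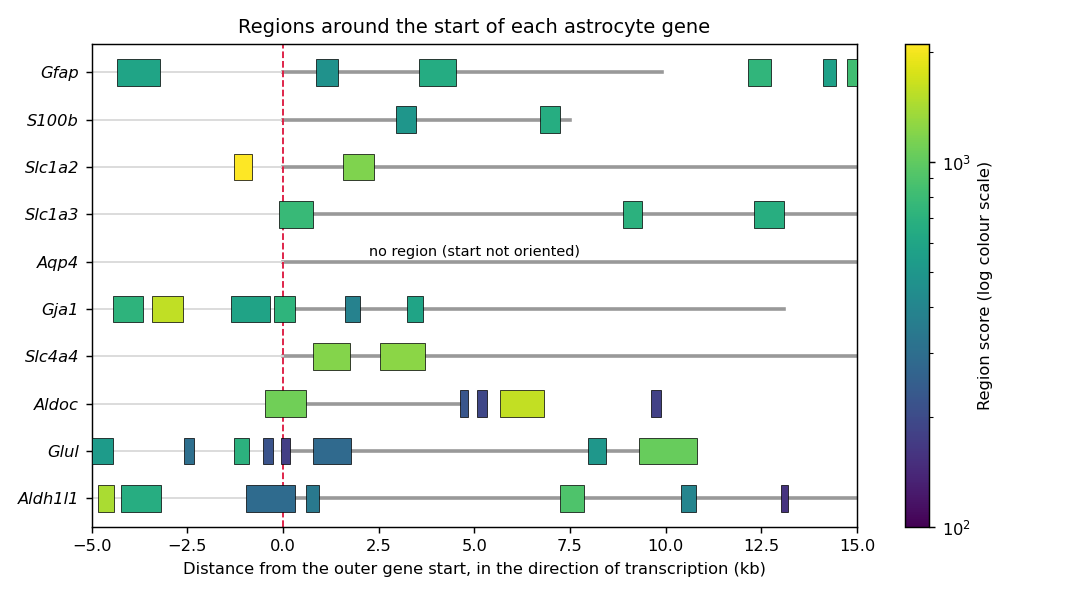
Regions from 5 kb before to 15 kb after the outer start of each gene, in the direction of transcription, with 1 row per gene. Boxes are regions, coloured by score on a log colour scale; the thick grey line is the gene and the dashed line its start. Boxes lie over the start of Slc1a3, Gja1, Aldoc, Glul and Aldh1l1, and not over that of Gfap or S100b. Aqp4 is drawn from its lower-numbered end and had no region.

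Slc1a2 and Slc4a4 had regions near, but not at, their outer starts. Slc1a2 encodes GLT-1, the main glutamate transporter of the forebrain (chr2:102658239-102790784). Its nearest region ended 809 bp upstream of the start and scored 2076, the highest value among the 84. Slc4a4 encodes a sodium bicarbonate cotransporter (chr5:88793858-89239656), and its nearest region began 773 bp inside the gene and scored 1195. RefSeq lists no promoter window at the outer start of either gene, so their promoters as counted above rest on the gene start alone. The windows it does list lie inside both genes, and none of them had a region. The window of Slc1a2 lay 48199 bp after the outer start and held 1 CG. The windows of Slc4a4 lay 93402 and 234108 bp after it and held 50 and 3 CG. The window with 50 CG was bordered by regions on both sides, at 410 bp before it and 282 bp after it, and had no covered base. The region before it scored 771. The one after it was 110 bp wide and scored only 117, where all scores in the list are at least 100. Among the windows listed first for each gene, those of Slc4a4 and Slc1a2 held the most and the fewest CG. They are shown without the 50 bases after the listed start, with CG in capitals, so that 44 of the 50 CG of the Slc4a4 window appear.
Slc4a4 (chr5:88887010-88887259, plus): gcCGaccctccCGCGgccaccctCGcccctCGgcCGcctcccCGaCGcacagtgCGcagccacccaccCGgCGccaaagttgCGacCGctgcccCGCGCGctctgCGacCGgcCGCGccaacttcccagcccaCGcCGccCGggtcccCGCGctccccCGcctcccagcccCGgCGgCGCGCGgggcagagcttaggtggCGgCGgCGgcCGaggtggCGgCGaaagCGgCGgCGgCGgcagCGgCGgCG
Slc1a2 (chr2:102706188-102706437, plus): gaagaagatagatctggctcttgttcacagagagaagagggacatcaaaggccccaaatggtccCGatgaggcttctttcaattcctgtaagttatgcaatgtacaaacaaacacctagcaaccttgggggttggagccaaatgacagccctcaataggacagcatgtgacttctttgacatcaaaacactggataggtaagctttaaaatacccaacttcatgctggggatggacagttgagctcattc

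Across all listed promoters, coverage went up and then down with the number of CG. Of windows without a CG, 8.6% had a region (95% Wilson interval 7.0 to 10.6). The share was 32.5% (30.9 to 34.2) with 3 to 5 CG, 60.0% (58.2 to 61.8) with 6 to 10, and 89.7% (88.4 to 90.8) with 21 to 25. It was 31.1% (28.2 to 34.1) with 41 to 67 CG. These intervals cover counting error only. The windows of Gfap and S100b stood in the class of 3 to 5 CG, in which most promoters had no region, and so did that of Slc1a3, which had one. The Slc4a4 window with 50 CG stood in the class of 41 to 67. Among all 43 listed promoters with exactly 50 CG, 14.0% had a region. The Glul window, with 17 CG, stood in the class of 16 to 20, of which 89.5% had a region.

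**Figure D2:**
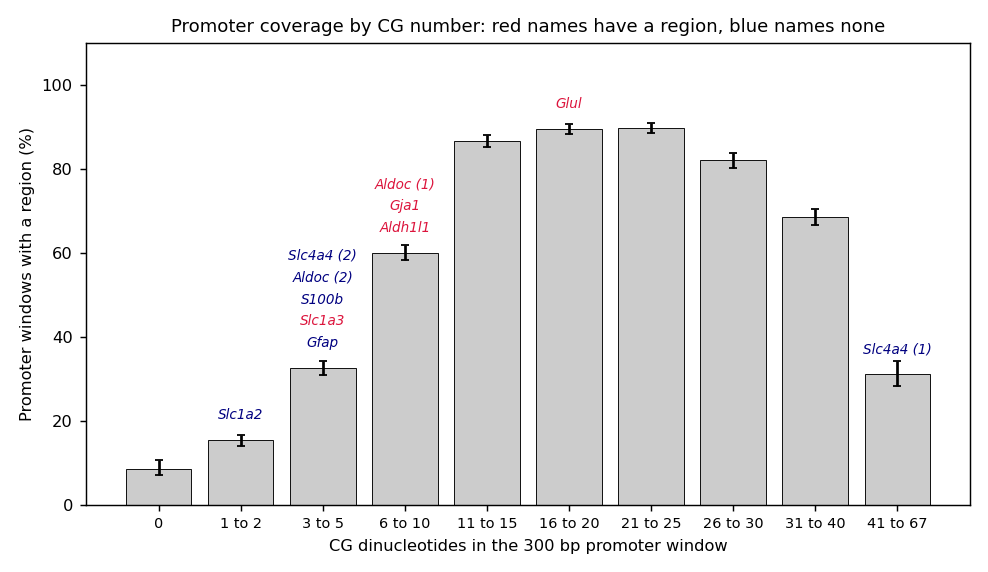
Share of all listed promoter windows with a region (bars, %, with 95% Wilson intervals) by the number of CG dinucleotides in the 300 bp window. Names mark the class of each astrocyte gene window, red with a region and blue without; numbers in brackets tell apart windows of 1 gene. The share was 8.6% without CG, 89.7% with 21 to 25 CG and 31.1% with 41 to 67.

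Motifs were searched in the 11 listed windows of the 9 genes. Of the motifs below, the letters of only TTCNNNGAA allow a CG, and none of its matches in these windows held one. The STAT motif TTCNNNGAA, searched on both strands over the 300 bp, had 1 match in the Gfap window, 1 in that of Slc1a3 and 2 in the window of Aldoc 1125 bp inside the gene, or 3 of the 11 windows, and 7.69% of all listed promoters held it. The NFI motif TTGGCA had 1 match in the S100b window and 1 in the Aldoc window at the outer start, against 13.1% of promoters with a match. The TATA box TATAAA had 1 match, in the Slc1a3 window, and 12.6% of promoters held it. The bases printed above for Gfap hold no complete STAT match, so the match in its window lies at least partly after the start. No sequence outside the windows was searched, so STAT sites farther upstream, and any CG in them, were not examined. Each motif was counted alone, with no removal of overlaps. A match is a description of letters, not of a bound site.

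By position, most regions of the astrocyte genes lay in gene bodies. Gene bodies held 58 of the 84 regions, or 69.0% (95% Wilson interval 58.5 to 77.9), promoters 6, or 7.1% (3.3 to 14.7), and the upstream and downstream flanks 10 each, or 11.9% (6.6 to 20.5). The flanks reached into other genes, and 6 of the 84 regions lay in a protein-coding neighbour. For a comparison with other genes, each region was therefore placed by any protein-coding gene with a listed strand. Gene bodies then held 73.8% of the 84 (63.5 to 82.0), against 75.7% of the 115010 regions near such genes, and promoters 10.7% (5.7 to 19.1), against 8.5%. Upstream flanks held 11.9%, against 9.3%, and downstream flanks 3.6% (1.2 to 10.0), against 6.5%. The interval of each of these 4 shares includes the value over all genes. The intervals treat regions of 1 gene as independent, although 21 of the 84 came from Slc4a4 and 16 from Slc1a2. Exons and introns were not told apart, because the gene table gives no exons.

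Aqp4 encodes aquaporin 4, the water channel of astrocyte endfeet (chr18:15389394-15410982). No region lay in the gene or its flanks. The nearest regions lay 37234 bp below its lower-numbered end, with a score of 490, and 26659 bp above its higher-numbered end, with a score of 133. The stretch without a region was 85.5 kb long, and 1.85% of the 220873 stretches between neighbouring regions were longer. Counted by gene, 1463 protein-coding genes, or 6.68%, lay in such a long stretch. Of all protein-coding genes, 87.9% had a region in the gene or within 5000 bp. Among the 1809 genes whose length with flanks was within 10% of that of Aqp4, 136 (7.52%) had none, and the median was 6. Chromosome 18 as a whole held 6981 regions.

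Gfap and S100b each had 2 regions in the gene, and differed in the number of regions in the flanks. Gfap had 6 regions, against a median of 5 in the 1989 genes of similar length, with scores of 590 upstream, 470 and 651 in the gene, and 731, 561 and 828 downstream. The 3 downstream regions lay in the neighbouring gene Ccdc103, and the last of them also in Eftud2, so only 2 of the 6 lay in Gfap itself. S100b had 2 regions, both in the gene, with scores of 493 and 660. Of the 2002 genes of similar length to S100b, 19.0% had fewer regions, and the median was 4.

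The glutamate pathway genes had regions in their bodies, with long stretches between them. Slc1a2 had 16 regions, with scores between 165 and 2076 and a median of 806, the highest median of the 9 covered genes. This number was above that of 51.7% of genes of similar length, which had a median of 15. Its regions were unevenly spaced, with none for 47.6 kb, between 27.9 and 75.6 kb after the start. Slc1a3 had 10 regions, with scores between 135 and 1088 and a median of 681.5, and 780 at its promoter. Genes of similar length to Slc1a3 had a median of 11 regions, and 43.8% of them had fewer than Slc1a3. It had a stretch of 35.3 kb without a region. Regions covered 7.93% of the bases of Slc1a2 and its flanks and 6.27% of those of Slc1a3, against a median of 8.84% over all protein-coding genes. That median was not matched for length. For the stretches without a region no share over other genes is given, so their length cannot be read as particular to these genes. Glul, which turns glutamate into glutamine, had 8 regions, more than 78.5% of the 1989 genes of similar length. From upstream to downstream the Glul scores were 527, 300, 703, 217, 173, 282, 503 and 1035. The low values thus lay around the start and the high one over the end of the gene, with no region between 1.8 and 8.0 kb after the start. Of the 2 regions at the Glul promoter, the upstream one also lay in Gm38440, a long non-coding RNA gene, and the other in Mir8114, a microRNA gene.

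The gap junction gene Gja1 and the ion transport gene Slc4a4 differed in how densely they were covered. Gja1 had 6 regions with scores of 712, 1575, 582, 721, 380 and 592 from upstream to downstream. The 1575 lay upstream (chr10:56373881-56374690), ending 2610 bp before the gene and the promoter region scored 721, above the remaining 4. More than 3670 bp after its start the gene held no region. Slc4a4 had 21 regions in 445.8 kb, all in the gene body, with scores between 111 and 1235 and a median of 532. A stretch of 144.0 kb of Slc4a4 had no region, and no share over other genes is given for such a stretch. Per 10 kb of gene and flanks Slc4a4 had 0.46 regions, against a median of 1.57 over all protein-coding genes. Among the 118 genes of similar length the median was 26 regions.

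The metabolic genes Aldoc and Aldh1l1 differed in where their high scores lay. Aldoc had 5 regions, with 1091 at the promoter, 227 over its end and 191, 1593 and 180 beyond it. The regions with 1593 and 180 lay in Pigs, the next gene, so the highest score near Aldoc was not in Aldoc. Aldh1l1 had 10 regions. Its highest scores were 1428 (chr6:90545931-90546340), upstream, and 1252, downstream in Slc41a3, and its promoter region scored 287. The 6 regions in the body of Aldh1l1 scored between 128 and 902.

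**Figure D3:**
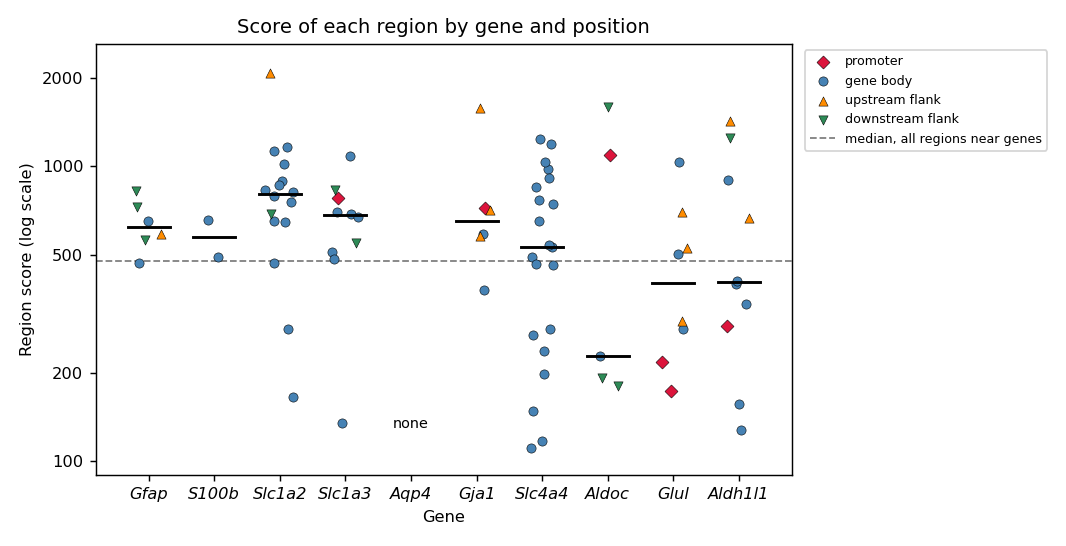
Score of each region (log scale) by gene, with the symbol giving its position and the short black bar the median of the gene. The dashed line is the median of 476 over all regions near protein-coding genes. Slc1a2 had the highest median score, 806, and Aldoc the lowest, 227, with no account taken of region width. Aqp4 had no region.

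The 84 regions had a higher median score than the list as a whole, but a middling one for their width. Their median was 649.5 (95% binomial interval of the median 512 to 703), against 476 over all regions near protein-coding genes and 462 over the whole list. Their median width was 605 bp, compared with 480 bp near all protein-coding genes. When each score was ranked among the regions of the whole list whose width differed by at most 50 bp, the median percentile was 49.8 (38.9 to 59.6), against 49.2 for the regions near all protein-coding genes. The order of the genes by this percentile differed from that by score. Aldoc, with a median width of 260 bp, had the highest median percentile, 64.8, and Gfap, with 775 bp, the lowest, 28.4. Slc1a2, with 690 bp, had 57.0. Regions at promoters had a median percentile of 35.4, and those at all promoters had 37.4. The intervals cover the choice of regions only, and regions of 1 gene are not independent.

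Regions at the extremes for their width were not more frequent than elsewhere. Above the 90th percentile were 4 of the 84, or 4.8%, against 6.3% of the regions near all protein-coding genes, and below the 10th were 4 as well, against 10.3%. Those above were the upstream region of Slc1a2 (chr2:102656971-102657430, percentile 99.7), those of Aldh1l1 (99.2) and Gja1 (93.9), and the downstream one of Aldoc, which lies in Pigs (93.1). Those below were in Aldh1l1, Glul and Slc4a4. The promoter region of Aldh1l1 (chr6:90549801-90551070), 1270 bp wide with a score of 287, stood at 0.6. The region of Glul 772 bp after its start, 1000 bp wide with a score of 282, stood at 1.1, and 2 regions in the body of Slc4a4 stood at 4.3 and 7.9. Aldh1l1 thus had a wide region with a low score at the start, and Glul had one in the gene body just after it. The promoter regions of Glul itself were 270 and 230 bp wide and stood at 21.8 and 19.4. Those of Aldoc, Gja1 and Slc1a3 stood at 72.2, 59.5 and 49.0.

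**Figure D4:**
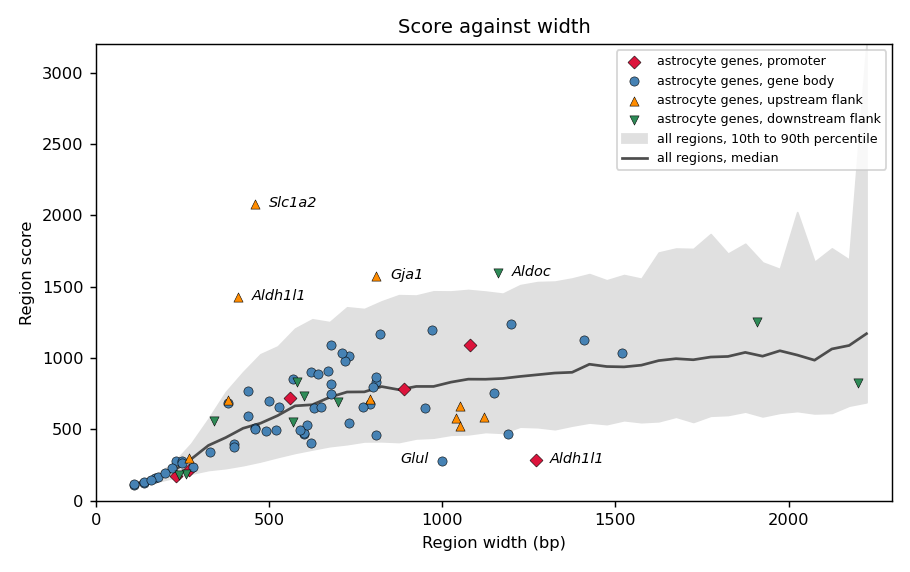
Score against width (bp) of the 84 regions, with the median (line) and the 10th to 90th percentile (grey band) of all regions in 50 bp classes of width. Named points lie outside the band, among them Slc1a2 with 2076 above it and the promoter region of Aldh1l1 with 287 below it.

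Other astrocyte genes and genes of other brain cells were counted in the same way. Of 23 further astrocyte genes with a listed strand, 13 had a region at the promoter, or 56.5%, against 57.1% of all genes. Those without included Acsbg1, Apoe, Dio2 and Fabp7. Of 10 oligodendrocyte genes 7 had one, and Mog, Opalin and Ugt8a did not. Of 11 neuronal genes 8 had one, and of 9 microglia genes 2 did, with Aif1, C1qb, Cx3cr1 and Fcrls among those without. The median percentile at matched width was 45.9 for regions of the further astrocyte genes, 45.4 for oligodendrocyte genes, 37.5 for neuronal genes and 44.2 for microglia genes, against 49.2 over all. The lists are small, and no difference between them was tested.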

How the data were processed

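DNA of the 8 lines was captured with an Agilent SureSelect XT kit for mouse methylation and bisulfite sequenced, per the labels' protocols. The submitters' processing notes name Novoalign 3.7.1, Picard and mm10. How regions and methylation were called, and with which threshold, was not given in the sources used. The score deposited by the authors is 1 whole number per region for the whole series, of at least 100, and served here for description and ranking within the list. A further allele of the mouse genotypes is not reported here.

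Gene positions and biotypes came from the RefSeq table and strands from the RefSeq promoter table, both on GRCm38.p6; 9 of the 10 genes had a promoter entry. A region was placed, by at least 1 bp, at a promoter, otherwise in the gene body, otherwise in a flank. Width-matched percentiles used regions of the list up to 50 bp narrower or wider, with ties counted equally on both sides. Python 3.11.15, pandas 2.3.3, NumPy 2.4.6, SciPy 1.17.1 and Matplotlib 3.10.9 were used, and the overlap steps were tested on simulated data. The genes and lists were chosen with earlier results of these data known. All 10 genes were named; of other genes, those sharing a region and up to 4 without a promoter region per list, in alphabetical order. No test was run. The list has no value for a single line, so the planned comparison over lines was not run. Alternatives were other flanks, promoter windows, score minimum, overlap rule and width tolerance.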

Additional observations from a re-analysis of the deposited data

How the results depend on the processing

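Of 25 values recomputed under 9 alternatives, 20 stayed within 1.5 times the count, or within the 95% binomial interval, and 5 did not, all on promoters. With the midpoint of a region required in the window, 1 of the 10 genes had a region at the promoter, in place of 5, and 1.2% of regions lay there, in place of 7.1%; regions are often wider than the window. With windows of 1000 bp to each side, 8 genes had one, all except S100b and Aqp4, and 15.5% of regions lay there. By that distance 71.9% of all genes had a region. With either end of the gene within 1000 bp and no strand, the count was 9. For the midpoint and either-end rules no share over all genes is given, nor one over all regions for the 1.2% and 15.5%. These values therefore do not set the astrocyte genes apart. With the listed promoter windows in place of the outer start, an alternative chosen after seeing the data, it remained at 5. The number of regions ran from 70 with flanks of 2000 bp to 103 with flanks of 10000 bp, and the median score from 551 with flanks of 10000 bp to 676 with scores of 200 or more. At the edge of the 5000 bp flank, the region farthest out lay 4920 bp from Aldoc and scored 180, and the nearest one left out lay 5067 bp from Slc1a2 and scored 138. No paired analysis was possible because the list has no value for a single line. Leaving out a line was not possible for the same reason.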
